A study of Mus musculus with 8 samples.

Results

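The nuclear-encoded subunits of the mitochondrial respiratory chain were measured in epididymal fat of prednisolone-treated and vehicle-treated mice. Members were the genes whose symbol begins with Ndufa, Ndufb, Ndufc, Ndufs, Ndufv, Uqcr, Cox4, Cox5, Cox6, Cox7, Cox8 or Atp5, together with Sdha, Sdhb, Sdhc, Sdhd and Cyc1, each read from 1 probe set with a single gene symbol. The rule gave 90 genes of the 22180 named on the array, and 84 of them exceeded the signal minimum applied before testing, a log2 value of 5.82 averaged over the 8 arrays. By function, 6 members were core and 26 accessory subunits of complex I, 8 were assembly factors of complex I, 4 belonged to complex II, 8 to complex III, 19 to complex IV and 17 to ATP synthase. The remaining 2, Atp5c1-ps and Uqcrh-ps1, are pseudogenes and were below the minimum. Ndufa4, which carries a complex I name, was placed with complex IV, where the protein resides, and its paralogue Ndufa4l2 was placed beside it. The members below the minimum were these pseudogenes, Ndufs5 (mean 5.68), Atp5j2 (5.40), Cox8c (5.41) and Cox7b2 (3.99). A further 10 probe sets pair a member with another gene symbol and were not used, so several subunits were not analysed here.

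The respiratory chain passes electrons from NADH, through complex I, and from succinate, through complex II, to ubiquinone, then to complex III, cytochrome c and finally complex IV, where oxygen is reduced. Complexes I, III and IV pump protons across the inner mitochondrial membrane, and ATP synthase uses the gradient to make ATP. Most subunits are encoded in the nucleus and a small catalytic set in mitochondrial DNA, so the complexes are assembled from the products of both genomes. White adipocytes hold fewer mitochondria than brown adipocytes, and some complex IV subunits exist as isoforms that are preferred in muscle and brown fat, in lung or in testis.

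The 8 mice were male C57BL/6, and RNA of each left epididymal fat pad was read on 1 Affymetrix Mouse Gene 2.0 ST array. Every mouse, controls included, was weaned at 3 weeks of age onto a diet rich in n-6 fat with 45% of its energy as fat. In the treated group, 4 mice were given prednisolone, a synthetic glucocorticoid, at a labelled dose of 40 mg/kg/m2 each day in sweet potato puree from the age of 6 weeks, and 4 control mice were given puree only. Fat was taken after 4 weeks, at the age of 10 weeks. Values are log2 signals from robust multiarray averaging (RMA), and differences are prednisolone minus vehicle means with the standard error (SE) of a linear model in limma. The number of arrays limits their precision. The comparison asks whether prednisolone under this diet changed the transcripts of the chain. In whole tissue, fewer cells of a type and less RNA per cell cannot be told apart.

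The tissue label was checked against its defining markers. The adipokine Adipoq read between 11.74 and 12.29 and the fatty acid carrier Fabp4 between 13.72 and 13.97 on all arrays. Epididymal transcripts were uneven: vehicle mice 1 and 4 had mean deviations of 3.66 and 2.35 over 7 tested epididymis markers and prednisolone mouse 2 had 2.99, while the other 5 mice lay between -2.93 and 0.47. These 3 are called the epididymis-rich mice. All 8 macrophage markers were higher on average with prednisolone (median 0.27), and their scores ran from -0.60 in vehicle mouse 4 to 0.64 in vehicle mouse 3. Spermatid markers, 6 genes, were also uneven: prednisolone mouse 3 and vehicle mouse 1 had scores of 1.12 and 1.15, and the others lay between -0.83 and 0.36. For the epididymis, fits that left out the 3 mice or took the score as a covariate are given below or in the closing section. Leaving out the 3 mice left prednisolone mice 1, 3 and 4 against only vehicle mice 2 and 3. In the mean deviation of the tested members, vehicle mice 2 and 3 were the highest and lowest of the 8 mice (0.08 and -0.08). The part of macrophages and spermatids was not tested.

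The chain as a whole stood at nearly the same level in both groups. Of the 84 tested members, 40 were higher on average and 44 lower with prednisolone, where 54.6% of all 14787 tested genes were higher. The median difference was -0.0042 over the members and 0.02 over all tested genes. Among the 2014 tested genes at least as bright as the median member, 60.1% were higher and the median difference was 0.03. Differences ran from -0.23 for Ndufb11 to 0.36 for Cox8b, and 66 members lay within 0.1 of 0, as did 47.8% of all tested genes. None of the 84 passed an adjusted p of 0.05 in limma, and the share over all tested genes was also 0%. At an unadjusted p under 0.05 there were 2 members, against 5.69% of all tested genes. They were Ndufa5, which was lower (background 2.33%), and Ndufaf2, which was higher (background 3.37%). In the same 2 the groups did not overlap, which was the case in 3.2% of all tested genes (1.39% with vehicle higher and 1.81% with prednisolone higher).

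The intervals show how large a change these arrays would still allow. The 95% interval of the difference lay within 1.25-fold in either direction (0.32 on the log2 scale) for 66 members, against 33.9% of all tested genes, and within 1.5-fold for 82, against 76.8%. Cox8b and Ndufb11 had wider intervals. The median SE was 0.09 over the members and 0.12 over all tested genes. Among the 2014 tested genes at least as bright as the median member, the median SE was 0.12 and 37.2% had an interval within 1.25-fold. The split of higher and lower members moved with the scaling and with single mice. It was 53 higher of 84 when arrays were centred on their medians or quantile-normalized again, 55 without vehicle mouse 2 and 26 without vehicle mouse 3. The count at an unadjusted p under 0.05 was 5 without vehicle mouse 2 and 0 without vehicle mouse 3 or prednisolone mouse 2 or 3.

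**Figure D1:**
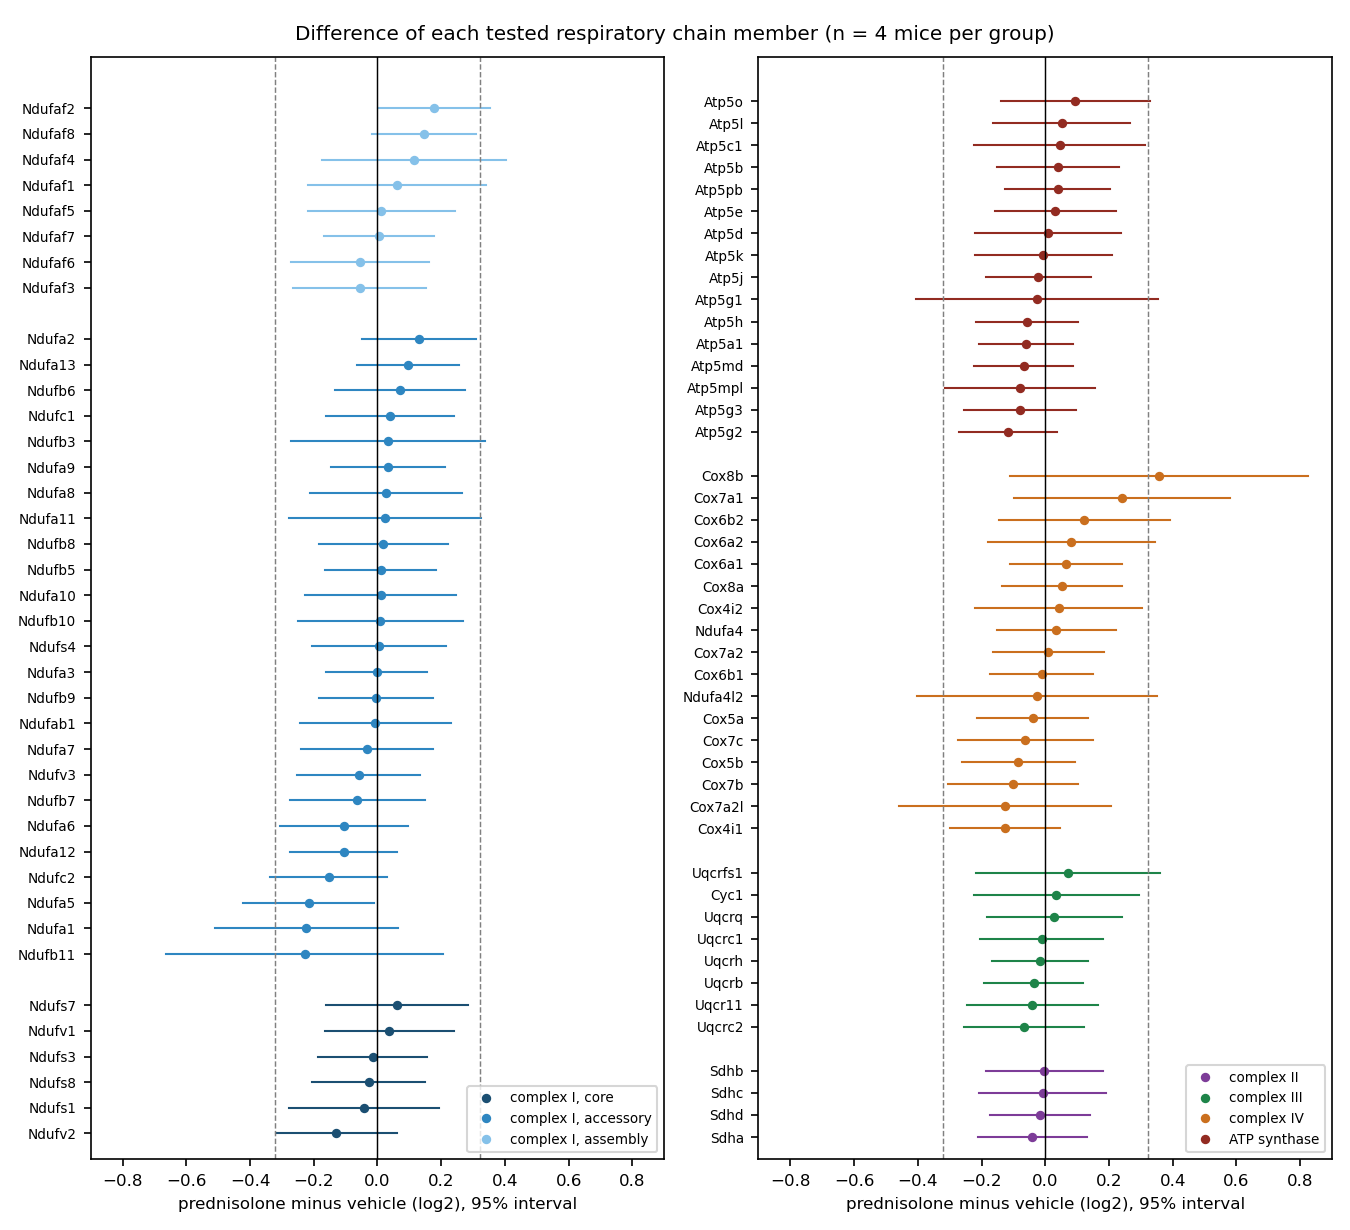
Difference between prednisolone and vehicle means on the log2 scale (x axis) for each of the 84 tested members (y axis), coloured by complex, with points for the difference and lines for the 95% interval of the limma fit (n = 4 mice per group). Dashed lines mark 1.25-fold in either direction. Most intervals cross 0 and stay between the dashed lines, and Cox8b reaches farthest, from -0.11 to 0.82.

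Complex I core subunits carry the flavin and the iron-sulfur clusters through which electrons run. Of 6 tested, 2 were higher and 4 lower on average (median -0.02), and all 6 intervals lay within 1.25-fold. Ndufv1, which binds NADH and the flavin, read 9.64, 9.45, 9.58 and 9.66 in prednisolone mice 1 to 4 and 9.46, 9.71, 9.45 and 9.57 in vehicle mice 1 to 4. The groups overlapped almost fully (0.04 ± 0.09). Ndufs1, the largest subunit of the electron input arm, averaged 9.42 and 9.46 (-0.04 ± 0.10), a sign that turned without vehicle mouse 2. Ndufv2, a partner of Ndufv1 with an iron-sulfur cluster, had the lowest p of this group. Ndufv2 read 9.96, 10.07, 10.11 and 9.84 with prednisolone and 10.14, 10.10, 10.06 and 10.21 with vehicle, a difference of -0.13 ± 0.08 (limma adjusted p = 0.768). Ndufs7, which holds the last cluster before ubiquinone, differed by 0.06 ± 0.10.

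Accessory subunits of complex I surround the core and stabilise it. Of 25 tested, 13 were higher and 12 lower on average, with a median of 0.01, and 1 had an unadjusted p under 0.05. That member was Ndufa5, a subunit of the matrix arm. It read 8.15, 8.04, 8.06 and 8.05 in prednisolone mice 1 to 4 and 8.16, 8.17, 8.42 and 8.43 in vehicle mice 1 to 4. Every vehicle mouse lay above every prednisolone mouse, but vehicle mice 1 and 2 did so by a margin far smaller than the gap to vehicle mice 3 and 4. The difference was -0.22 ± 0.09, or 1.16-fold higher with vehicle, with an unadjusted p of 0.0423 and an adjusted p of 0.768 in limma.

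Ndufa1, a small membrane-arm subunit, read 9.69, 9.84, 9.62 and 9.73 with prednisolone and 10.25, 9.71, 9.80 and 10.03 with vehicle (-0.22 ± 0.13). Its highest values in the vehicle group were in mice 1 and 4, and its highest in the prednisolone group was in mouse 2, the 3 epididymis-rich mice. When those were left out the Ndufa1 difference was -0.07, and without vehicle mouse 1 alone it was -0.12. Ndufb11, a membrane-arm subunit read close to the signal minimum, read 6.33, 6.20, 5.61 and 5.95 with prednisolone and 6.37, 5.84, 6.35 and 6.45 with vehicle (-0.23 ± 0.19). Single mice set its size: the difference was -0.09 without prednisolone mouse 3 and -0.37 without vehicle mouse 2. Ndufc2, a membrane-arm subunit, averaged 10.28 and 10.44 (-0.15 ± 0.08), with prednisolone mouse 1, at 10.41, inside the vehicle range of 10.36 to 10.57. In the other direction Ndufa2, a matrix-arm subunit with a thioredoxin fold, had the largest difference, 0.13 ± 0.08, with all 8 values between 9.34 and 9.61.

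Assembly factors build complex I and then leave it. Of 8 tested, 6 were higher and 2 lower on average, with a median of 0.04. Ndufaf2, which binds a late assembly intermediate, read 6.70, 6.64, 6.67 and 6.58 in prednisolone mice and 6.55, 6.35, 6.41 and 6.56 in vehicle mice. The lowest prednisolone value exceeded the highest vehicle value by a margin smaller than the SD of either group. The difference was 0.18 ± 0.08, or 1.13-fold, with an unadjusted p of 0.0478 and an adjusted p of 0.768 in limma. Leaving out the epididymis-rich mice gave 0.27. Ndufaf8, a cofactor of the methyltransferase-like factor Ndufaf5, read 8.05, 8.16, 8.12 and 8.17 with prednisolone and 7.88, 8.07, 7.98 and 7.98 with vehicle. The groups overlapped only through prednisolone mouse 1 and vehicle mouse 2 (0.15 ± 0.07, adjusted p = 0.768), and the difference was 0.09 once the epididymis-rich mice were left out. Ndufaf4 differed by 0.12 ± 0.13, with prednisolone mouse 3 at 8.56 and vehicle mouse 3 at 7.93. Without the former it was 0.02, without the latter 0.04 and without vehicle mouse 1 0.18. Ndufaf3, its assembly partner, differed by -0.06 ± 0.09.

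Complex II oxidises succinate and is wholly nuclear-encoded. Its 4 subunits all lay within 0.05 of 0. The flavoprotein Sdha differed by -0.04 ± 0.07, the iron-sulfur protein Sdhb by -0.0038 ± 0.08, and the membrane anchors Sdhc and Sdhd by -0.01 ± 0.09 and -0.02 ± 0.07. Each averaged lower with prednisolone, and all 4 signs turned under at least 1 other scaling. Sdha read 11.43, 11.34, 11.39 and 11.38 with prednisolone and 11.31, 11.44, 11.40 and 11.56 with vehicle, so the prednisolone mice lay inside the vehicle range. All 4 intervals stayed within 1.25-fold, and the lowest bound was -0.21 for Sdha.

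Complex III hands electrons from ubiquinol to cytochrome c. Of 8 tested, 3 were higher and 5 lower on average (median -0.01), and 7 intervals lay within 1.25-fold. Cyc1, the cytochrome that passes the electron on, read 9.22, 9.10, 9.24 and 9.10 in prednisolone mice and 9.14, 9.36, 8.85 and 9.18 in vehicle mice. Both the highest and the lowest value of the 8 were in vehicle mice, 2 and 3 (0.03 ± 0.11). Its sign turned without vehicle mouse 3. The Rieske iron-sulfur protein Uqcrfs1 had the largest positive difference, 0.07 ± 0.13, and read from 7.58 to 8.09 with prednisolone and from 7.57 to 7.90 with vehicle. The core proteins Uqcrc1 and Uqcrc2 differed by -0.01 ± 0.08 and -0.07 ± 0.08, and the sign of Uqcrc1 turned under both other scalings. Uqcrb, which helps form the ubiquinone pocket, averaged 11.93 and 11.97.

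Complex IV held the widest range of differences, with Cox8b and Cox7a1 at the upper end. Of 17 tested, 9 were higher and 8 lower on average, with a median of 0.01. Cox8b, the isoform of muscle and brown fat, read 7.02, 7.19, 7.45 and 7.52 in prednisolone mice 1 to 4 and 6.62, 7.43, 6.62 and 7.09 in vehicle mice 1 to 4. Vehicle mice 1 and 3 were low, while vehicle mouse 2 lay among the highest prednisolone mice. The difference was 0.36 ± 0.20, or 1.28-fold, with a 95% interval from 0.93-fold to 1.77-fold (limma adjusted p = 0.768). Cox7a1, also an isoform of muscle and brown fat, read 7.18, 7.28, 7.48 and 7.05 with prednisolone and 6.95, 7.37, 6.97 and 6.74 with vehicle. Again vehicle mouse 2 stood inside the prednisolone range (0.24 ± 0.15, adjusted p = 0.768). With the epididymis-rich mice left out the Cox8b difference was 0.31 and that of Cox7a1 0.07. Without vehicle mouse 2 the Cox8b difference was 0.52. Without vehicle mouse 4 the Cox7a1 difference was 0.15, and without vehicle mouse 2 it was 0.36.

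The common paralogues of Cox8b and Cox7a1 had smaller differences, and the difference between paralogues was not tested. Cox8a averaged 12.49 and 12.44 (0.05 ± 0.08) and Cox7a2 averaged 10.17 and 10.16 (0.01 ± 0.08). Cox6a2, the isoform of heart and skeletal muscle, averaged 6.18 and 6.10 (0.08 ± 0.12), and its sign turned once the epididymis-rich mice were left out. Its common paralogue Cox6a1 averaged 13.40 and 13.33 (0.07 ± 0.08). Cox4i2, the isoform of lung, differed by 0.04 ± 0.12 with a sign that turned without prednisolone mouse 1 or vehicle mouse 1, while the common Cox4i1 averaged 10.54 and 10.66 (-0.13 ± 0.08, adjusted p = 0.768). Prednisolone mice 1 to 4 read 10.56, 10.49, 10.49 and 10.61 for Cox4i1, and vehicle mice read 10.79, 10.59, 10.59 and 10.68. The Cox4i1 difference was -0.04 without the epididymis-rich mice and -0.08 without vehicle mouse 1. Cox7a2l, which helps join complexes III and IV, read 8.91 in vehicle mouse 1 and between 8.25 and 8.52 in the other 7 mice (-0.13 ± 0.15). Of the testis isoforms, Cox6b2 differed by 0.12 ± 0.12, and Cox7b2 and Cox8c were below the minimum in both groups. Cox6b1 averaged 10.70 and 10.71, Cox5a 9.89 and 9.93, Ndufa4 11.59 and 11.56, and the hypoxia-inducible Ndufa4l2 8.02 and 8.05. The sign of Cox6b1 turned when arrays were centred or quantile-normalized again, and that of Ndufa4l2 with repeated quantile normalization.

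Other genes of brown fat and muscle were read beside these isoforms. Ucp1, the uncoupling protein that defines brown and beige adipocytes, was below the minimum on average and was not tested. It read 6.03, 5.61, 6.74 and 5.78 in prednisolone mice and 5.28, 5.54, 5.22 and 5.59 in vehicle mice, so the groups did not overlap, by a margin of the second decimal. The groups were apart with prednisolone higher in 1.81% of tested genes, a share that leaves out genes below the minimum such as Ucp1. Cidea, a lipid droplet protein abundant in brown fat, read 6.22, 6.37, 6.73 and 6.84 with prednisolone and 5.94, 6.56, 5.94 and 6.29 with vehicle (0.36 ± 0.19), with vehicle mice 1 and 3 low and vehicle mouse 2 high as for Cox8b. Elovl3, a brown fat elongase, and Dio2, which activates thyroid hormone, were below the minimum, with means that differed by -0.33 and 0.32. Of 8 skeletal muscle markers, 4 were below the minimum and the 4 tested were higher on average with prednisolone. The differences of the 4 tested ran from 0.07 to 0.99, with a median of only 0.09. Acta1, skeletal muscle actin, reached 9.98 in prednisolone mouse 4 and 8.75 in prednisolone mouse 3, against 7.61 to 8.09 in vehicle mice. The muscle myosins Myh1 and Myh4 averaged 4.80 and 5.43 in prednisolone mice. The mean deviation of the 4 tested muscle markers ran from -0.14 to 0.52 with prednisolone and from -0.22 to -0.02 with vehicle. The part of brown-type adipocytes or muscle cells in the Cox8b and Cox7a1 values was not tested.

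**Figure D2:**
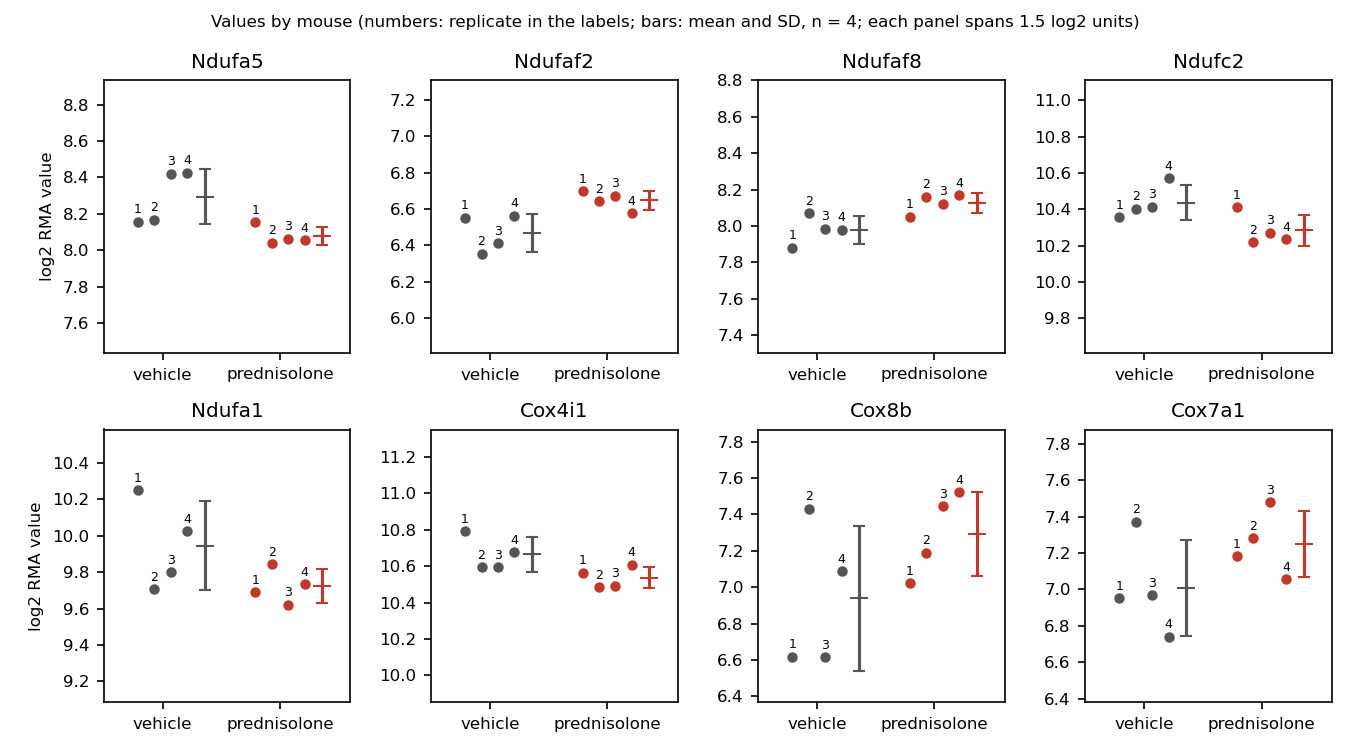
Log2 RMA value (y axis) of Ndufa5, Ndufaf2, Ndufaf8, Ndufc2, Ndufa1, Cox4i1, Cox8b and Cox7a1 in each mouse, vehicle in grey and prednisolone in red, with the replicate number of the label over each point and the mean with SD (n = 4) at the side. Ndufa5 and Ndufaf2 have groups that do not overlap, and of the 8 members plotted Cox8b and Cox7a1 spread widest, with vehicle mouse 2 inside the prednisolone range in both.

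The promoters of Cox6a1, Cox8a, Cox8b, Cox7a2 and Cox7a1 are shown as examples from complex IV, with common and muscle-type isoforms among them. A link between their base composition and the level or spread of the transcripts was not tested. Sequences are from the RefSeq promoter table of build GRCm38.p6, on the strand of the gene, from 140 bases before to 10 bases after the annotated start. In that order they lie at chr5:115348949-115349098 (minus strand), chr19:7217607-7217756 (minus), chr7:140900437-140900586 (minus), chr9:79759844-79759993 (minus) and chr7:30184031-30184180 (plus). Capitals mark CCGGAAG, the core bound by GABPA, here on the opposite strand.
Cox6a1: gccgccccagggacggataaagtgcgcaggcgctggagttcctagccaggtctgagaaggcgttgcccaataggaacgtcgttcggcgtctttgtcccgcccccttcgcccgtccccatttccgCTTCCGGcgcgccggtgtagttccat
Cox8a: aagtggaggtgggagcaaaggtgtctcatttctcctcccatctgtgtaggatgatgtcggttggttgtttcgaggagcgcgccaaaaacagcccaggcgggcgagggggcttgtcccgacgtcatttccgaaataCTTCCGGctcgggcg
Cox8b: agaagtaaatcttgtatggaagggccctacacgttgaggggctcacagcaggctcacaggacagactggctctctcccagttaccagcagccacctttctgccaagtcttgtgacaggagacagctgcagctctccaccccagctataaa
Cox7a2: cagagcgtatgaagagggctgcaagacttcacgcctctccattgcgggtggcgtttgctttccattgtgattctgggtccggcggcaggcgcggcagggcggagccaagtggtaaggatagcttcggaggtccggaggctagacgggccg
Cox7a1: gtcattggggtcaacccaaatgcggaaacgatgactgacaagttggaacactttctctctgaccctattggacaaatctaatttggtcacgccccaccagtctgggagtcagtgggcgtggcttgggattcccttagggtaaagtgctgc
The GABPA core begins 16 bases before the start in Cox6a1 and 5 bases before it in Cox8a. The 300-base windows hold 32 CpG dinucleotides in Cox6a1, 19 in Cox8a and 20 in Cox7a2, but 2 in Cox8b and 7 in Cox7a1. The median over all promoters of the table was 7.

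ATP synthase couples a soluble catalytic head to a rotor in the membrane. Of 16 tested, 7 were higher and 9 lower on average, with a median of -0.01, and 14 intervals lay within 1.25-fold. The head subunits Atp5a1 and Atp5b differed by -0.06 ± 0.06 and 0.04 ± 0.08. Atp5a1 read 11.97, 11.94, 11.97 and 11.93 with prednisolone and 11.97, 12.09, 11.97 and 12.04 with vehicle, a range of 0.155 over all 8 mice. The ring of the rotor is made of one protein encoded by Atp5g1, Atp5g2 and Atp5g3. These differed by -0.03 ± 0.17, -0.12 ± 0.07 and -0.08 ± 0.08. Atp5g2 read 11.57, 11.54, 11.44 and 11.46 with prednisolone and 11.66, 11.55, 11.61 and 11.65 with vehicle, with prednisolone mouse 1 above vehicle mouse 2 as the overlap. Its second probe set gave -0.11. Atp5o, the stalk subunit named for oligomycin sensitivity, had the largest positive difference (0.09 ± 0.10), and Atp5md, a small membrane subunit, averaged 11.80 and 11.87.

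The mitochondrially encoded subunits were also close between the groups. Of 10 tested, 2 were higher and 8 lower on average, with a median of -0.02 and differences from -0.11 for ND6 to 0.01 for CYTB. ND5, a proton-pumping subunit of complex I, differed by -0.04 ± 0.06. ND6, the only protein gene on the light strand, read 11.26, 11.26, 11.44 and 11.40 with prednisolone and 11.19, 11.51, 11.65 and 11.45 with vehicle. Vehicle mouse 3 was the highest of its group in all 10 genes and vehicle mouse 1 the lowest in all 10, and prednisolone mouse 2 was the highest of its group in 8. The list median was -0.07 when the epididymis-rich mice were left out. Means over 8 arrays ran from 13.65 to 14.25 apart from ND6 at 11.39, near the highest of any tested gene, 14.31. So near the top of the signal range, a compressed difference cannot be told from a small one. COX2, ATP6 and ATP8 were not among the 10.

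Genes that build, feed or control the chain were counted in the same way. Assembly and insertion factors outside the member prefixes included 31 of 38 that were higher on average (median 0.07), where 54.6% of all tested genes were higher, and 0 passed the adjusted threshold. Cox19, a copper-handling factor for complex IV, read 8.19, 8.04, 8.53 and 8.21 in prednisolone mice and 7.68, 8.04, 7.82 and 7.73 in vehicle mice. The groups were apart, by under 0.01 at prednisolone mouse 2 and vehicle mouse 2 (0.43 ± 0.12, unadjusted p = 0.0084, limma adjusted p = 0.768). Cox19 was the 1 gene of the 38 with groups apart, against 1.81% of all tested genes with prednisolone higher. Oxa1l, which inserts subunits into the inner membrane, averaged 10.30 and 10.48 (-0.18 ± 0.08). In this list prednisolone mouse 3 was the highest of its group in 25 genes and vehicle mouse 3 the lowest of its group in 26. The list median was 0.02 without the former and 0.04 without the latter.

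Citric acid cycle and pyruvate dehydrogenase genes were higher for 13 of 16 (median 0.04). The median was -0.02 without prednisolone mouse 3 and also without vehicle mouse 3, so its direction rests on those mice. Sucla2, which makes succinate, averaged 9.09 and 8.95, and Dlat, a subunit of pyruvate dehydrogenase, differed by 0.19 ± 0.14 with prednisolone mouse 3 at 9.84 and the other 7 mice between 9.10 and 9.40. Without prednisolone mouse 3 the Dlat difference was 0.06. Cs, citrate synthase, differed by 0.05 ± 0.13, and its sign turned without either of those mice. Electron carriers and quinone genes were higher for 12 of 16 (median 0.10), with the lowest p in the coenzyme Q genes Coq9 (0.18 ± 0.10) and Pdss2 (0.18 ± 0.10), and cytochrome c, Cycs, differed by 0.04 ± 0.11. The quinone list median was 0.05 without prednisolone mouse 3 and 0.04 without vehicle mouse 3. Mitochondrial mass markers were higher for 9 of 17 (median 0.00), with the import channel Timm23 at 0.16 ± 0.10 and the import receptor Tomm22 at -0.13 ± 0.09. The Timm23 difference was 0.09 without prednisolone mouse 3 and 0.10 without vehicle mouse 3. Mitochondrial ribosomal proteins were higher for 39 of 67 (median 0.01), with Mrpl27 at 0.23 ± 0.10 and Mrpl11 at 0.15 ± 0.08. The groups did not overlap for 1 of the 67, Mrpl11, against 1.81% of all tested genes with prednisolone higher.

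Regulators of mitochondrial transcription were higher for 11 of 17 (median 0.03). Ppara, a lipid-sensing nuclear receptor, read 7.10, 7.12, 7.02 and 7.07 in prednisolone mice and 6.84, 6.94, 6.68 and 7.01 in vehicle mice, with the groups apart by a margin of the second decimal (0.21 ± 0.09, unadjusted p = 0.0394, limma adjusted p = 0.768). Ppara was the 1 gene of the 17 with groups apart, against 1.81% of all tested genes with prednisolone higher. Prdm16, a determinant of beige adipocytes, differed by 0.15 ± 0.09. The coactivators Ppargc1a and Ppargc1b differed by -0.10 ± 0.21 and -0.09 ± 0.17, with signs that turned without vehicle mouse 4. That of Ppargc1a also turned without prednisolone mouse 3, to 0.05. The DNA-binding factors Esrra, Nrf1 and Gabpa differed by 0.11 ± 0.08, 0.08 ± 0.08 and -0.02 ± 0.09 (Gabpa turned sign with centred arrays), and Tfam, which packages mitochondrial DNA, by 0.07 ± 0.08. Among antioxidant and uncoupling genes 5 of 9 were higher (median 0.01). Ucp3, an uncoupling protein homologue, averaged 8.21 and 7.67 (0.54 ± 0.29), a difference that reached 0.82 when prednisolone mouse 2 was left out and 0.38 when mouse 4 was. Ucp3 was highest in prednisolone mice 3 and 4 (8.49 and 8.69), the same mice in which Acta1 was highest. The 4 tested muscle markers, Acta1 among them, had a median difference of 0.09, and the part of muscle cells was not tested. Gpx4, which reduces lipid peroxides, differed by 0.21 ± 0.09.

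**Figure D3:**
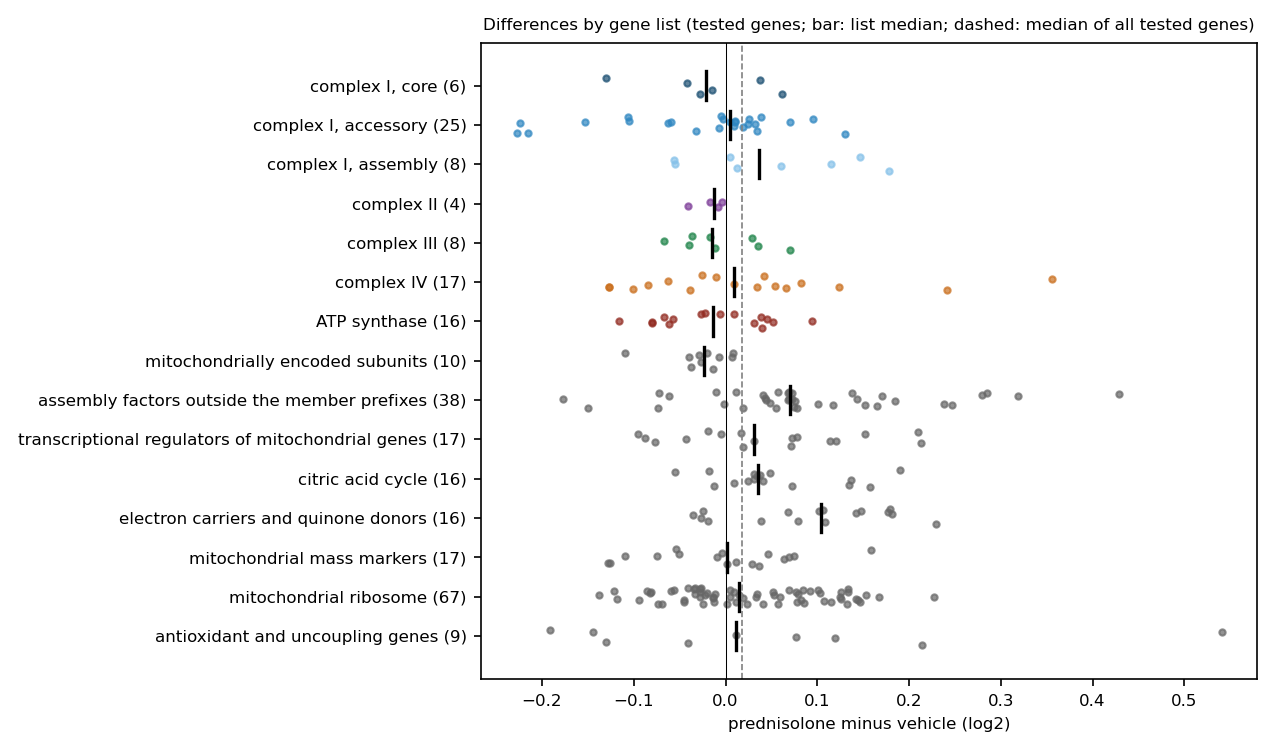
Difference between prednisolone and vehicle means on the log2 scale (x axis) for each tested gene of the 7 member groups (coloured) and 8 further lists (grey), with the number of tested genes in brackets. The black bar is the list median and the dashed line the median of all tested genes, 0.02. The medians of the 7 member groups lie between -0.02 and 0.04, and the median of the quinone list is farthest to the right at 0.10.

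Members varied more among vehicle mice than between the groups, and so did tested genes at large. The median SD in vehicle mice was 0.12 over the members and 0.18 over all tested genes. The median absolute difference between the groups was 0.04 and 0.11 in the same order. A score was taken as the mean deviation of the 84 tested members from their averages over the 8 arrays. It read 0.04, -0.03, 0.02 and -0.03 in prednisolone mice 1 to 4 and -0.0047, 0.08, -0.08 and 0.01 in vehicle mice 1 to 4. The extremes of the 8 mice were thus both vehicle mice, and the prednisolone mice lay between them. Vehicle mouse 2 was the highest of its group in 48 of 84 members (57.1%), against 31.3% of all tested genes. Vehicle mouse 3 was the lowest of its group in 40 members (47.6%), against 27.6% of all tested genes. The citric acid cycle and mitochondrial ribosome lists had the same extremes: vehicle mouse 2 was highest in 81.2% and 56.7% of genes. Vehicle mouse 3 was lowest in 75% and 64.2% of them. Among mass markers vehicle mouse 3 was lowest in 76.5%, but vehicle mouse 1 was highest in 58.8% and vehicle mouse 2 in 35.3%. Regulators differed: vehicle mouse 4 was most often the highest and most often the lowest, in 35.3% each. By complex, vehicle mice 2 and 3 had the highest and lowest score of their group, with exceptions in vehicle mouse 1. That mouse was highest in assembly factors, lowest in complex II and level with mouse 3 in complex IV (-0.07 each). In the mitochondrially encoded list vehicle mouse 3 was at the other end, with the highest score of the 8 mice, 0.07. Complex IV scores spanned 0.19 in vehicle mice and 0.07 in prednisolone mice, and complex III scores 0.19 and 0.14. The SD was larger in vehicle than in prednisolone mice for 65 of 84 members, against 61.4% of all tested genes, and for 16 of 17 in complex IV. The median SD over the members was 0.09 with prednisolone and 0.12 with vehicle.

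Vehicle mouse 3 also had the highest macrophage score, 0.64, and vehicle mouse 2 the highest adipocyte marker score of the vehicle group, 0.11. Of 9 adipocyte markers, 8 were higher on average with prednisolone (median 0.13). Adipocyte marker scores were 0.07, -0.07, 0.16 and 0.13 in prednisolone mice 1 to 4 and -0.27, 0.11, -0.07 and -0.05 in vehicle mice 1 to 4. Their part in the spread of the chain was not tested.

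**Figure D4:**
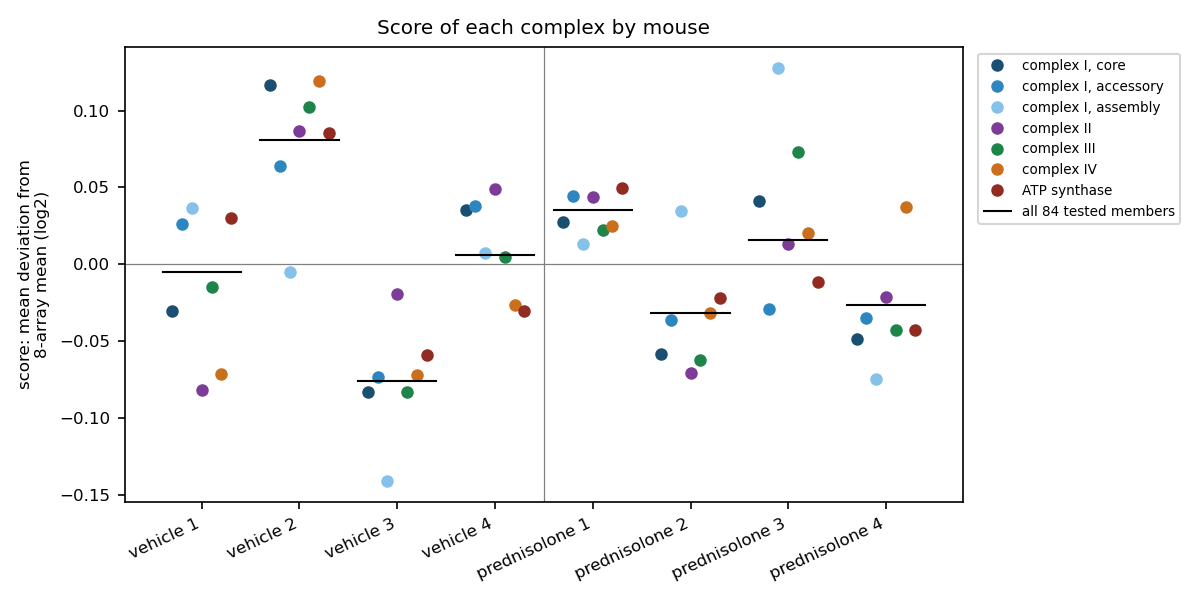
Score of each complex in each mouse (y axis, mean deviation of the tested members from their 8-array mean, log2), with vehicle mice on the left, prednisolone mice on the right and a bar for all 84 tested members. Vehicle mouse 2 is highest at 0.08 and vehicle mouse 3 lowest at -0.08, and the prednisolone bars lie between them.

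**Figure D5:**
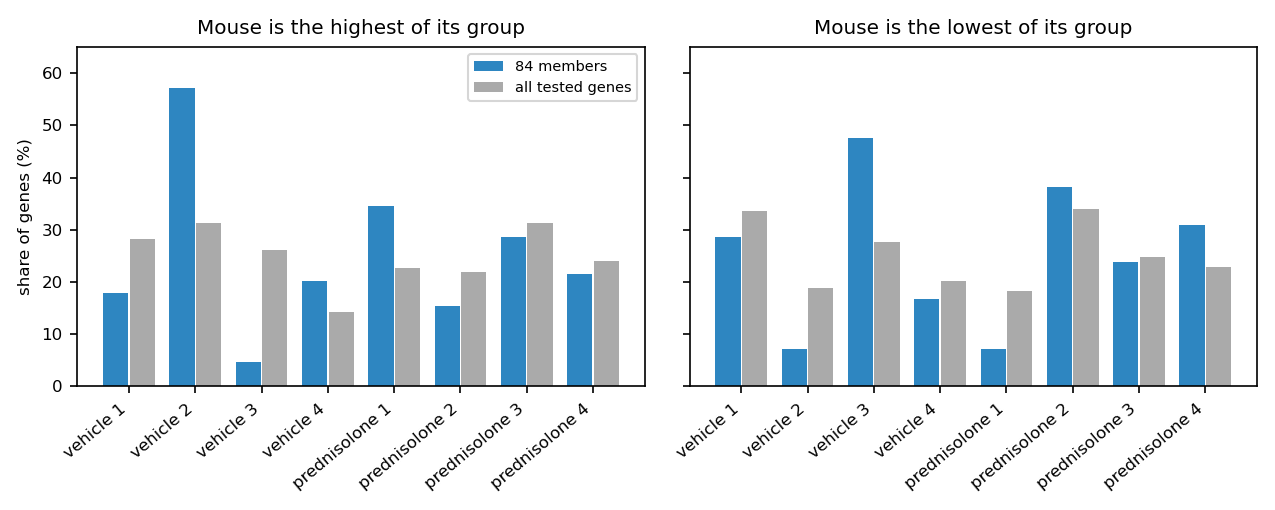
Share of genes (y axis, percent) in which each mouse is the highest (left) or the lowest (right) of the 4 mice in its group, for the 84 tested members in blue and all tested genes in grey. Vehicle mouse 2 is highest in 57.1% of members and vehicle mouse 3 lowest in 47.6%.

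Promoters of the members were searched for short motifs of factors that act on mitochondrial genes, on both strands of the 300-base windows that run from 250 bases before to 50 after the start. The table held 72 of the 90 members and 27025 genes in all. The NRF1 palindrome, GCGCA followed by its reverse complement, was present in 7 members (9.72%), against 2.03% of tested genes and 1.07% of all genes in the table. These were Atp5g2, Atp5k, Cox6a1, Ndufa11, Ndufaf4, Ndufaf5 and Uqcrc1. The GABPA core CCGGAAG was present in 19 members (26.4%), against 17% of tested genes. The YY1 motif AAGATGGC was present in 10 members (13.9%), against 4.56%, and the ERR motif TCAAGGTCA in Atp5g3 and Sdhd (2.78%), against 0.373%. AGAACA, the hexamer recognised by the glucocorticoid receptor, was present in 10 members (13.9%), against 15.5% of tested genes. The 10 were Atp5c1, Atp5md, Ndufa3, Ndufa5, Ndufaf5, Ndufb6, Ndufs3, Ndufs4, Ndufv2 and Uqcrh. Their differences ran from -0.22 for Ndufa5 to 0.07 for Ndufb6. A match is a description of the letters in the window, not a site of binding. Promoters of members were richer in CpG, with a median of 20 against 7 in all promoters, and in GC, at 58.3% against 52.7%. Unlike the motif shares, these medians were not taken over the promoters of tested genes.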

How the data were processed

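Total RNA (100 ng per mouse) from 8 fat pads was hybridised to 1 array each, per the labels' protocols. The authors deposited log2 values computed by RMA with Affymetrix software (Expression Console), per the labels. RMA corrects background, equalises array distributions and summarises probe sets, so a shift common to a whole array is removed. The submitters' processing notes also list Partek 6.6 without stating its use; the genome build of the probe annotation is not given in the sources used here. Array medians lay between 6.09 and 6.13. Of 41345 probe sets, 23521 had 1 gene symbol in the platform annotation, 1814 several and 16010 none. The brightest single-symbol probe set was kept per gene (22180 genes), and the dimmest 33.3% of genes were left out of testing, leaving 14787. Among the 9 members with several probe sets, 3 (Cox5b, Cox7b and Ndufa11) had differences of opposite sign between them.

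Groups came from the treatment in the labels. Tests used limma 3.58.1 in R 4.3.3 (lmFit, eBayes, no covariate), with Benjamini-Hochberg adjustment over all 14787 genes at 0.05, and were tested on simulated data. Replicates are described as biological. Scores and lists carry no test. The members, lists and alternatives were chosen with earlier results of these data known. Named genes were members with groups apart, the 3 lowest p and the extreme differences per complex, fixed isoforms and subunits, and the 2 lowest p per further list; Atp5g1 and Cox7a2l were added after their values were seen. The labels do not say that same-numbered mice are pairs, so the main fit did not pair them. Their deviations correlated at -0.19, -0.58, 0.13 and -0.28 for numbers 1 to 4, which cannot settle whether they were pairs. Alternatives changed the signal filter, scaling, probe set choice, variance model, array weights and replicate block, and left out single mice. Chosen after seeing the data were a fit with the epididymis marker score as covariate and one without the 3 mice whose score exceeded 1. The latter kept prednisolone mice 1, 3 and 4 and vehicle mice 2 and 3. Sequences are from RefSeq tables of GRCm38.p6.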

Additional observations from a re-analysis of the deposited data

Results flagged for a closer look

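Among 168 sets of 4 mice examined (named genes and list scores, by group), 7 held 1 mouse far from the other 3; about 1 set in 20 is marked in this way by chance. In the vehicle group, Ndufb11 was low in mouse 2 (5.84, nearest 6.35), Cox7a2 was low in mouse 3 (10.03, nearest 10.19) and Sucla2 was high in mouse 2 (9.13, nearest 8.91). In the prednisolone group, Atp5md was low in mouse 3 (11.76, nearest 11.82), Timm23 and Esrra were high in mouse 3 (11.93, nearest 11.67, and 7.89, nearest 7.73), and the score of complex I accessory subunits was high in mouse 1 (0.0443, nearest -0.03).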

How the results depend on the processing

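No gene passed an adjusted p of 0.05 under any alternative. The count of members at an unadjusted p under 0.05 was 2, and 1 with arrays centred on their medians, with the dimmest 50% of genes left out, with a trended and robust variance, with the epididymis score as covariate, with no signal filter, with quantile normalization repeated, or without the epididymis-rich mice. With a replicate block it was 0, although the labels do not say that the numbers pair mice, and leaving out 1 mouse gave 0 to 5. Leaving out 1 mouse also gave 26 to 55 members higher with prednisolone, and medians from -0.0593 to 0.0353 for complex I accessory subunits, -0.056 to 0.0467 for ATP synthase, 0.0177 to 0.0878 for regulators and -0.0858 to 0.0673 for antioxidant genes. The mitochondrially encoded median was -0.0673 without the epididymis-rich mice.

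Signs near 0 turned. With centred arrays the differences were 0.0096 for Sdhd, 0.0175 for Sdhc, 0.0223 for Sdhb, 0.0157 for Cox6b1, 0.0145 for Uqcrc1 and 0.0065 for Gabpa, and Ndufa4l2 was at 0.0. With repeated quantile normalization they were 0.0023 for Sdha, 0.0038 for Sdhd, 0.009 for Sdhc, 0.0134 for Sdhb, 0.013 for Cox6b1, 0.0035 for Ndufa4l2 and 0.0065 for Uqcrc1. Array weights gave 0.0104 for Sdhd, 0.0094 for Cox6b1, 0.0572 for Ndufa4l2 and 0.0007 for Cox5a. Without the epididymis-rich mice Cox4i2 was at -0.0153, Cox6a2 at -0.0449, Sdhb at 0.0055, Ppargc1a at 0.0255 and Ppargc1b at 0.0718, and with the score as covariate Ppargc1a was at 0.005.

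Leaving out 1 mouse at a time turned the sign of these genes, with ranges of -0.0788 to 0.0029 for Sdha, -0.0496 to 0.0291 for Sdhb, -0.0539 to 0.0589 for Sdhc, -0.0417 to 0.0092 for Sdhd, -0.1083 to 0.0127 for Ndufs1, -0.0058 to 0.1641 for Uqcrfs1, -0.0711 to 0.0344 for Uqcrc1. The ranges were -0.0596 to 0.1115 for Cyc1, -0.0152 to 0.124 for Cox4i2, -0.0367 to 0.0243 for Cox6b1, -0.0339 to 0.0335 for Cox7a2, -0.0269 to 0.065 for Ndufa4, -0.1156 to 0.1157 for Ndufa4l2. For the remainder they were -0.0012 to 0.0904 for Atp5b, -0.2299 to 0.0498 for Ppargc1a, -0.2001 to 0.0381 for Ppargc1b, -0.0946 to 0.0263 for Gabpa, -0.033 to 0.0863 for Cycs, -0.0385 to 0.1209 for Cs. Of the other alternatives for single genes, 1104 kept the sign and the side of the threshold, and the cause of the turns was not tested. The 4 arrays per group limit precision: the median SE was 0.09 over the members.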
